A study of Mus musculus with 6 samples.

Results

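Pcyt2 encodes the enzyme that joins phosphoethanolamine to CTP, and it was examined here with 7 other genes that make, use or supply phosphatidylethanolamine (PE): Etnk1, Etnk2, Phospho1, Selenoi, Cept1, Pisd and Pemt. The 8 genes were chosen by symbol, through the Ensembl identifiers of the count table, from the 54532 genes of that table. The choice covers the ethanolamine branch of the Kennedy pathway, the phosphatidylserine decarboxylation route and the methylation of PE. Of the 8 genes, 7 passed the filter on low counts and were among the 14715 genes tested, and Etnk2 did not pass it.

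The series measured RNA by sequencing in quadriceps muscle of chow-fed mouse pups at 10 days of age, and its stated question is the effect of depleting Pcyt2 on the genes expressed in the early muscle. It holds 3 Myf5Cre-Pcyt2 libraries (genotype Myf5Cre-Pcyt2 flox/flox) and 3 control libraries (genotype Pcyt2 flox/flox). Both groups therefore carry the floxed Pcyt2 alleles, and only the Myf5Cre-Pcyt2 pups are said to carry Cre, so that Pcyt2 loss and the presence of Cre from Myf5 cannot be told apart. Myf5 is active in muscle precursors, and cells of the quadriceps outside that lineage keep the intact floxed alleles. The labels do not say which part of Pcyt2 the flox sites enclose, nor whether litters differed between pups, and the p-values below reflect only the spread among these 6 libraries.

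PE is a major phospholipid of cell membranes and is abundant in the inner mitochondrial membrane. In the Kennedy pathway ethanolamine is phosphorylated, the phosphoethanolamine is activated with CTP to CDP-ethanolamine by the Pcyt2 enzyme, and the head group is then passed to a diradylglycerol in the endoplasmic reticulum and Golgi. A separate route makes PE inside mitochondria by decarboxylating phosphatidylserine, and part of the PE of the cell can be methylated to phosphatidylcholine.

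Library totals lay between 17775898 and 20446920 counts, with 20921 to 23122 genes detected per library. Replicate 3 of each group was male by its Xist and Y-linked counts and the others were female. The 6 skeletal muscle markers summed to 100411 to 133185 CPM (counts relative to the library total, scaled with TMM factors, which correct for composition) in Myf5Cre-Pcyt2 and 164162 to 232392 CPM in control. The groups did not overlap in that sum, and they did not overlap in the summed satellite cell markers either, at 91.9 to 93.7 CPM in Myf5Cre-Pcyt2 and 54.8 to 62.4 CPM in control. Cdh15 weighed most in the satellite cell sum, with means of 65.0 CPM in Myf5Cre-Pcyt2 and 38.0 CPM in control. Within that list Cdh15, Pax7 and Chrdl2 were higher in each Myf5Cre-Pcyt2 library, whereas Myf5 and Calcr overlapped between the groups. Schwann cell markers summed to 445 to 621 CPM in Myf5Cre-Pcyt2 and 303 to 369 CPM in control, and fibroblast markers to 11517 to 13130 CPM in Myf5Cre-Pcyt2 and 8372 to 10904 CPM in control. Col1a1 and Col3a1 made up most of the fibroblast sum. Of the fibroblast markers, Col3a1 and Pdgfra were higher in each Myf5Cre-Pcyt2 library, whereas Col1a1, Dcn and Lum overlapped between the groups. Endothelial, adipocyte, macrophage and erythroid sums overlapped between the groups. Fabp4 made up most of the adipocyte sum, with means of 394 CPM in Myf5Cre-Pcyt2 and 440 CPM in control. Control replicate 1 stood far above the other controls in Plin1, at 102 CPM against 7.95 and 28.8 CPM, with 24.6 to 37.5 CPM in Myf5Cre-Pcyt2. All 5 adipocyte markers had lower means in Myf5Cre-Pcyt2, with ranges that overlapped. The part of these shifts and of the adipocyte values of control replicate 1 in the results below was not tested.

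In TMM-scaled CPM Pcyt2 itself was lower in each Myf5Cre-Pcyt2 library than in each control library, but the difference was small and did not pass the test. Pcyt2 (ENSMUSG00000025137, GRCm38 chr11:120610087-120617936, minus strand) had 280, 328 and 272 counts in Myf5Cre-Pcyt2 and 353, 277 and 277 counts in control. Scaled to the libraries, these were 14.9, 14.3 and 12.6 CPM in Myf5Cre-Pcyt2 and 18.7, 16.1 and 16.0 CPM in control. The highest Myf5Cre-Pcyt2 library was below the lowest control library, and control replicate 1 stood above the other controls. The means were 13.9 ± 1.23 CPM in Myf5Cre-Pcyt2 and 16.9 ± 1.52 CPM in control (SD, n = 3 each). Pcyt2 RNA in Myf5Cre-Pcyt2 muscle was thus estimated at 82.3% of control, with a 95% interval of 69.6 to 97.2%. The log2 fold change, Myf5Cre-Pcyt2 over control here and throughout, was −0.28 ± 0.11 (SE), with an unadjusted p of 0.0258 from the quasi-likelihood test of edgeR (two-sided). After Benjamini-Hochberg adjustment over all tested genes the p was 0.0944, above the threshold of 0.05.

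The Pcyt2 count in Myf5Cre-Pcyt2 muscle was not near 0. A count per gene adds up reads from all exons, so it does not show how many of these reads come from a transcript that still holds the floxed part. In bulk tissue, fewer cells that carry a transcript and less of it per cell cannot be told apart, and reads from cells outside the Myf5 lineage are included. No 50-base stretch of the Pcyt2 transcripts was found in a transcript of another gene, and no annotated gene with counts overlapped it. The annotation gives 12 Pcyt2 transcripts, of which 2 code for protein. These 2 differ by a short exon that one of them skips, and it is shown because the deposited count pools both forms. Its 54 bases lie at chr11:120613030-120613083 on the minus strand (GRCm38, GENCODE M21, exon 7 of the transcript that holds it):
Pcyt2 exon 7: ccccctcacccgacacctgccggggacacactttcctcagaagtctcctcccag

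Across the alternatives tried, the log2 fold change of Pcyt2 was negative each time, between −0.35 and −0.07, with adjusted p between 0.0365 and 0.706. The weakest estimate, −0.07 with an edgeR adjusted p of 0.706, came with library size as the only scaling. Pcyt2 passed the threshold in 1 of 16 alternatives, in which an offset removed trends with GC content and length, with −0.35 and an adjusted p of 0.0365. Of 1373 tested genes with a mean CPM within 20% of that of Pcyt2, 21.2% passed the threshold, and the smallest size of a log2 change called among them was 0.311, just above that of Pcyt2.

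Among all 14715 tested genes, 18.6% passed the threshold, 9.02% with higher and 9.59% with lower levels in Myf5Cre-Pcyt2. Of the 7 tested genes of PE synthesis, 0 passed with edgeR, and 0 passed with DESeq2 or limma-voom. At an unadjusted p under 0.05 there were 4 of the 7 (Pcyt2, Selenoi, Cept1 and Pemt), against 34.5% of all tested genes. In these same 4 genes the CPM ranges of the groups did not overlap, against 39% of all tested genes. Over the 7 genes the median log2 fold change was −0.19, against −0.00 for all tested genes, whose quartiles were −0.22 and 0.23.

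**Figure D1:**
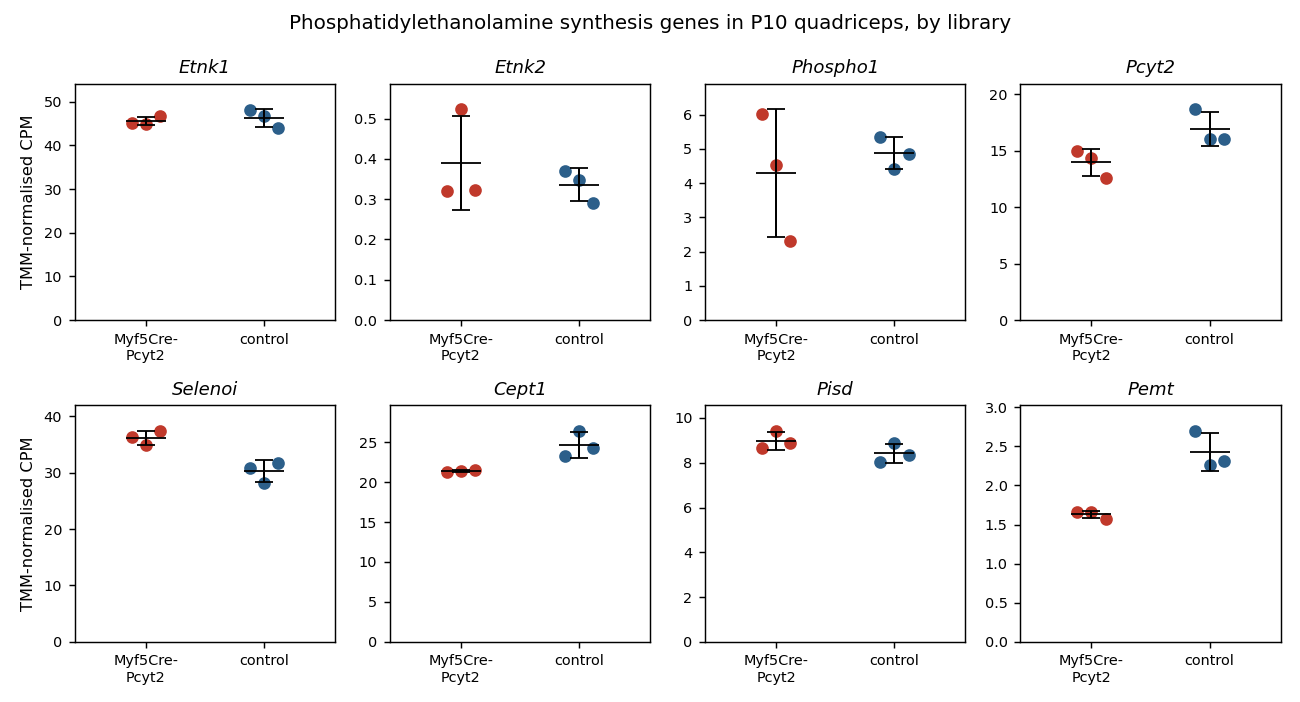
TMM-normalised CPM of the 8 genes in each library, with Myf5Cre-Pcyt2 in red and control in blue, and the mean ± SD of 3 libraries in black; each panel has its own axis from 0. The red points lie apart from the blue ones for Pcyt2, Selenoi, Cept1 and Pemt and overlap them for Etnk1, Etnk2, Phospho1 and Pisd, and 0 of the 7 tested genes passed the threshold.

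Etnk1 and Etnk2 encode ethanolamine kinases, which make phosphoethanolamine, and per kilobase of exon practically all of the measured kinase RNA was Etnk1. Etnk1 (ENSMUSG00000030275, chr6:143167221-143232307, plus strand) had 45.2, 44.9 and 46.6 CPM in Myf5Cre-Pcyt2 and 48.1, 46.8 and 44.1 CPM in control. The groups overlapped, and the Myf5Cre-Pcyt2 libraries lay close together. The means were 45.6 ± 0.912 CPM in Myf5Cre-Pcyt2 and 46.3 ± 2.03 CPM in control (SD, n = 3 each). Etnk1 was estimated at 98.4% of control with a 95% interval of 87.2 to 111.1% (log2 fold change −0.02 ± 0.08 SE, edgeR adjusted p 0.865), a sign that turned with library size as the only scaling (0.19) and without control replicate 1 (0.01). A little transcribed antisense gene, 1700126G02Rik, covers 1.42% of the Etnk1 exon bases and had 2, 4 and 6 counts in Myf5Cre-Pcyt2 and 2, 0 and 3 counts in control.

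Etnk2, the other kinase gene (ENSMUSG00000070644, chr1:133363572-133380336, plus strand), had 6, 12 and 7 counts in Myf5Cre-Pcyt2 and 7, 6 and 5 counts in control. These are 0.389 ± 0.117 CPM in Myf5Cre-Pcyt2 and 0.336 ± 0.0418 CPM in control (SD, n = 3 each). At so few counts a difference was not detectable, and the gene was not tested.

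Phospho1 encodes a phosphatase that takes the phosphate off phosphoethanolamine and phosphocholine and is known for its part in bone mineralisation. Phospho1 (ENSMUSG00000050860, chr11:95824499-95832140, plus strand) had 6.03, 4.54 and 2.31 CPM in Myf5Cre-Pcyt2 and 5.35, 4.41 and 4.87 CPM in control. Myf5Cre-Pcyt2 replicate 1 was above all control libraries and replicate 3 below them all. The means were 4.29 ± 1.87 CPM in Myf5Cre-Pcyt2 and 4.87 ± 0.469 CPM in control (SD, n = 3 each). The log2 fold change was −0.19 ± 0.28 (SE, edgeR adjusted p 0.670), which became 0.11 without Myf5Cre-Pcyt2 replicate 3 and 0.01 with library size as the only scaling.

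The Phospho1 count is uncertain, because 1818 of its 2029 exon bases (89.6%) are also exon of Zfp652 on the same strand and 1708 (84.2%) are exon of Abi3 on the opposite strand. Zfp652, a zinc finger gene, had 1802, 2119 and 2063 counts in Myf5Cre-Pcyt2 and 1781, 1996 and 1755 counts in control, far above Phospho1. Abi3 had 103, 166 and 122 counts in Myf5Cre-Pcyt2 and 116, 87 and 82 counts in control. The sources used here do not give how reads in the shared bases were assigned. Since Phospho1 is known from mineralising tissue, bone and cartilage markers were summed beside it, and they came to 39.2 to 53.0 CPM in Myf5Cre-Pcyt2 and 25.4 to 39.7 CPM in control, and their part in the Phospho1 values was not tested. Within that list Col2a1, a cartilage collagen, had 32.9 to 43.0 CPM in Myf5Cre-Pcyt2 and 19.9 to 31.1 CPM in control, while Alpl, a phosphatase of mineralising cells, had 2.35 to 3.36 CPM in Myf5Cre-Pcyt2 and 3.42 to 4.58 CPM in control. Ibsp, a defining bone marker, had 0, 4 and 0 counts in Myf5Cre-Pcyt2 and 0 counts in each control library.

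Selenoi encodes ethanolaminephosphotransferase 1, the selenoprotein that joins CDP-ethanolamine to a diradylglycerol, and it was the only one of the 4 genes with separated groups to be higher in Myf5Cre-Pcyt2. Selenoi (ENSMUSG00000075703, chr5:30232581-30272427, plus strand) had 36.4, 34.8 and 37.3 CPM in Myf5Cre-Pcyt2 and 30.9, 28.1 and 31.8 CPM in control. Each Myf5Cre-Pcyt2 library was above each control library. The means were 36.2 ± 1.26 CPM in Myf5Cre-Pcyt2 and 30.3 ± 1.90 CPM in control (SD, n = 3 each). Selenoi was estimated at 119.6% of control with a 95% interval of 105.1 to 136.0%. Its log2 fold change of 0.26 ± 0.08 (SE) had an unadjusted p of 0.0110 and an edgeR adjusted p of 0.0555, just short of the call.

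The Selenoi estimate lay between 0.13 and 0.46 over the alternatives, and between 0.21 and 0.29 when single libraries were left out. It passed when genes had to reach 1 CPM in 3 libraries (adjusted p 0.0499) and with library size as the only scaling (log2 fold change 0.46, adjusted p 0.0157), and over all alternatives the adjusted p lay between 0.0157 and 0.377. With the offset for GC content and length the Selenoi estimate was 0.13 (adjusted p 0.279). Selenoi has 13135 exon bases and belongs to the longest of 5 equal groups of tested genes by exon length, whose median log2 fold change was 0.11, against −0.17 in the shortest group. Pcyt2 lies in the middle group, with a median of 0.00. In 5 equal groups by GC content the medians were between −0.01 and 0.01.

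The Selenoi protein is read through a UGA codon that is translated as selenocysteine. The codon is shown in capitals, with 30 bases of coding sequence on either side. It lies in exon 10 and is codon 388 of 398 of the coding transcript, and the bases shown are chr5:30266934-30266996 on the plus strand (GRCm38, GENCODE M21):
Selenoi selenocysteine codon: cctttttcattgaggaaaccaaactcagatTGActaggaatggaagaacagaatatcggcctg

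Cept1 encodes the choline/ethanolamine phosphotransferase, which accepts CDP-ethanolamine as well as CDP-choline. Cept1 (ENSMUSG00000040774, chr3:106502260-106547802, minus strand) had 21.3, 21.4 and 21.6 CPM in Myf5Cre-Pcyt2 and 23.3, 26.5 and 24.3 CPM in control. All 3 Myf5Cre-Pcyt2 libraries were below the controls and nearly equal. The means were 21.4 ± 0.137 CPM in Myf5Cre-Pcyt2 and 24.7 ± 1.62 CPM in control (SD, n = 3 each). Cept1 was estimated at 86.9% of control with a 95% interval of 76.2 to 99.1% (log2 fold change −0.20 ± 0.09 SE, unadjusted p 0.0388, edgeR adjusted p 0.123), and the sign turned with library size as the only scaling (0.01).

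Cept1 shares 771 exon bases (24.7%) with Dennd2d on the opposite strand, and 5 with Dram2. Dennd2d had only 1, 3 and 5 counts in Myf5Cre-Pcyt2 and 6, 4 and 5 counts in control. Dram2, which encodes a lysosomal membrane protein, fell to 53.3 ± 7.01 CPM in Myf5Cre-Pcyt2, against 70.2 ± 2.26 CPM in control (SD, n = 3 each), with a log2 fold change of −0.40 ± 0.10 (SE, edgeR adjusted p 0.0231). The Dram2 call was lost when Myf5Cre-Pcyt2 replicate 2 (0.0875) or 3 (0.0585) or control replicate 2 (0.0553) was left out, and with library size alone (0.200). A term for replicate number (replicate block) together with the offset for GC content and length also removed the call.

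The values of Pcyt2 and Selenoi, which act one after the other, can also be set against each other inside each library, where no scaling between libraries enters. There were 41.1, 41.1 and 33.7 Pcyt2 counts per 100 Selenoi counts in Myf5Cre-Pcyt2 and 60.5, 57.1 and 50.5 in control. The groups did not overlap, with control replicate 3 the lowest control and Myf5Cre-Pcyt2 replicate 3 the lowest of all. The gap between the groups follows from the separated CPM ranges of both genes given above, because library scaling cancels in a ratio. The means were 38.6 ± 4.28 in Myf5Cre-Pcyt2 and 56.0 ± 5.13 in control (SD, n = 3 each), a log2 difference of −0.54 or a ratio 1.45-fold lower. A two-sided exact permutation test gave p = 0.1, the smallest that 3 against 3 libraries allow, so this design could not reach 0.05 here. With both genes already separated in opposite directions no other p was possible, so the test adds nothing to those separations. A ratio does not show which of the 2 genes differs.

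**Figure D2:**
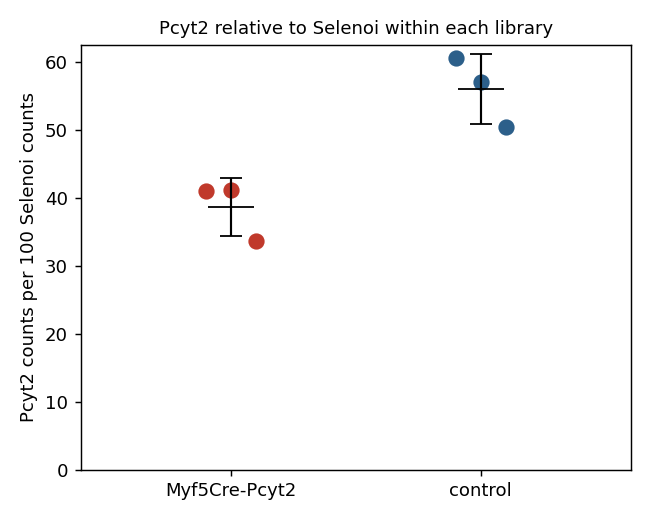
Pcyt2 counts per 100 Selenoi counts in each library (points) with mean ± SD of 3 libraries per group, on an axis from 0. Myf5Cre-Pcyt2 libraries lie at 33.7 to 41.1 and control libraries at 50.5 to 60.5.

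**Figure D3:**
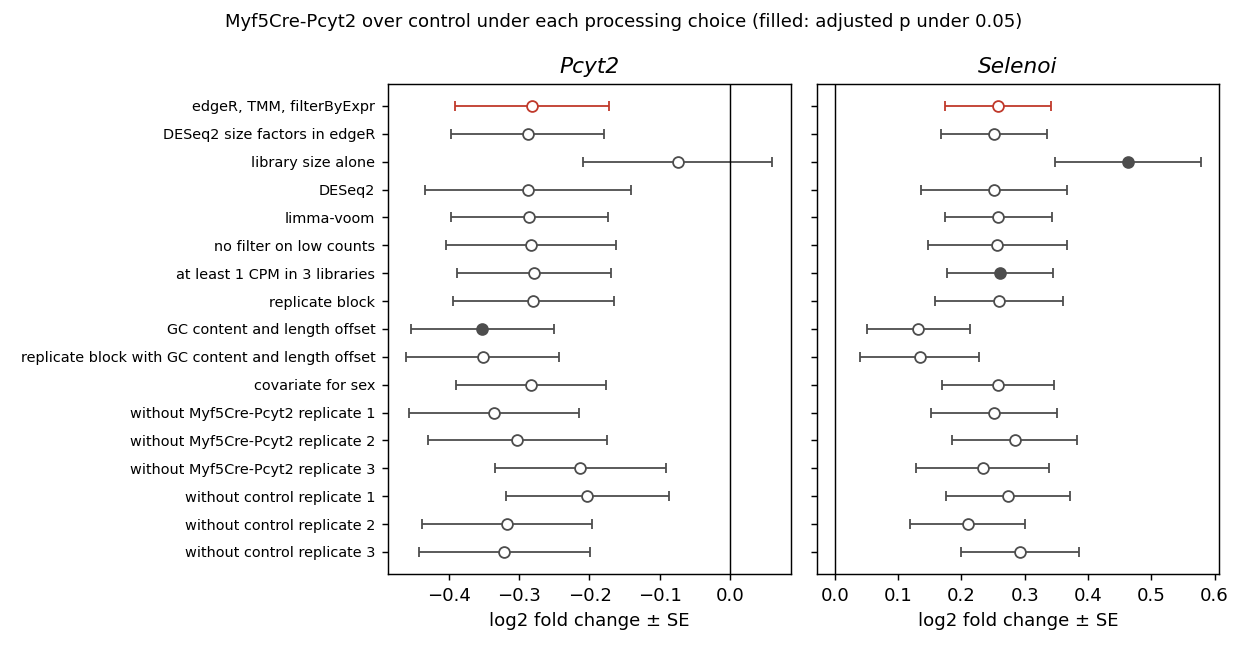
Log2 fold change ± SE of Pcyt2 (left) and Selenoi (right) under each processing choice, with the reported value at the top in red and filled points where the adjusted p was under 0.05. Pcyt2 stays below 0 and passes with the GC content and length offset alone, and Selenoi stays above 0 and passes with library size alone and with the 1 CPM filter.

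Pisd encodes phosphatidylserine decarboxylase, the mitochondrial enzyme of the route that does not need CDP-ethanolamine, and no difference was detected in it. Pisd (ENSMUSG00000023452, chr5:32736301-32785646, minus strand) had 8.65, 9.43 and 8.87 CPM in Myf5Cre-Pcyt2 and 8.05, 8.88 and 8.34 CPM in control. The groups overlapped. The means were 8.98 ± 0.404 CPM in Myf5Cre-Pcyt2 and 8.42 ± 0.420 CPM in control (SD, n = 3 each). Pisd was estimated at 106.8% of control with a 95% interval of 89.1 to 128.0% (log2 fold change 0.09 ± 0.12 SE, edgeR adjusted p 0.606), and the value was −0.00 with the GC content and length offset.

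Mouse Pisd has copies annotated as pseudogenes, and 19.1% of the 50-base stretches of its transcripts also occur in a transcript of another gene, most of them (17.9%) in Gm20671, which was listed at 0 counts in every library. Pisd-ps1 (ENSMUSG00000082286) had 13, 20 and 19 counts in Myf5Cre-Pcyt2 and 14, 12 and 12 counts in control, with a log2 fold change of 0.20 ± 0.29 (SE, edgeR adjusted p 0.657). Pisd-ps2 (ENSMUSG00000023795) had 2, 3 and 1 counts in Myf5Cre-Pcyt2 and 1, 1 and 2 counts in control and was not tested, and Pisd-ps3 was not analysed here. The counts of Pisd were 162, 216 and 192 in Myf5Cre-Pcyt2 and 152, 153 and 144 in control, so the copies with counts hold few counted reads beside it. To show how close they are, 120 bases of Pisd exon 4 (chr5:32739254-32739373, minus strand) are printed with the matching bases of Pisd-ps1 exon 3 (chr11:3128929-3129048, plus strand), from GRCm38 and GENCODE M21, with the 6 bases that differ in capitals. Over the 237 bases of the longest matching stretch 94.1% are identical.
Pisd: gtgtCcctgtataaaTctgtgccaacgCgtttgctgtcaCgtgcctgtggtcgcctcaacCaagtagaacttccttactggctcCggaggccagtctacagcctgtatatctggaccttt
Pisd-ps1: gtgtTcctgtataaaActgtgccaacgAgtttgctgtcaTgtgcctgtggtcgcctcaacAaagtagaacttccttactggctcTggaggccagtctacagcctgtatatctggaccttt

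Pemt encodes PE N-methyltransferase, which turns PE into phosphatidylcholine and is mainly known from liver, and of the 7 tested genes it had the largest estimated difference. Pemt (ENSMUSG00000000301, chr11:59970614-60046489, minus strand) had 31, 38 and 34 counts in Myf5Cre-Pcyt2 and 51, 39 and 40 counts in control. In CPM these were 1.66, 1.66 and 1.57 in Myf5Cre-Pcyt2 and 2.70, 2.26 and 2.32 in control. Every Myf5Cre-Pcyt2 library was below every control library. The means were 1.63 ± 0.0499 CPM in Myf5Cre-Pcyt2 and 2.43 ± 0.238 CPM in control (SD, n = 3 each). Pemt was estimated at 67.1% of control, and the 95% interval of 49.2 to 91.5% shows how little these counts fix the size.

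The Pemt log2 fold change of −0.58 ± 0.20 (SE) had an unadjusted p of 0.0165 and an edgeR adjusted p of 0.0705, and in the 16 alternatives its adjusted p was between 0.0657 and 0.260. Since Pemt is a liver gene, markers of hepatocytes (Alb, Apoa1, Ttr, Serpina1a and Cyp2e1) were summed beside it. They came to 14.2, 0.611 and 0.601 CPM in Myf5Cre-Pcyt2 and 1.85, 1.22 and 2.26 CPM in control. Myf5Cre-Pcyt2 replicate 1 stood out with 186 counts of Alb, 53 of Apoa1 and 18 of Ttr, whereas Serpina1a had 1 count in that library and 0 in the other libraries. Cyp2e1 had 8, 8 and 6 counts in Myf5Cre-Pcyt2 and 29, 18 and 8 counts in control, so that its CPM ranges separated the groups in the same direction as those of Pemt. The part of these markers in the Pemt values was not tested. Without Myf5Cre-Pcyt2 replicate 1 the Pemt log2 fold change was −0.59 (adjusted p 0.113).

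Levels of different genes can be compared per kilobase of exon, and on that scale Cept1, whose product works in both Kennedy branches, was the most abundant. In CPM per kilobase, Cept1 had 6.88 ± 0.044 in Myf5Cre-Pcyt2 and 7.92 ± 0.519 in control (SD, n = 3 each). Pcyt2 had 3.21 ± 0.284 in Myf5Cre-Pcyt2 and 3.90 ± 0.349 in control, and Etnk1 had 3.22 ± 0.064 in Myf5Cre-Pcyt2 and 3.27 ± 0.143 in control. Pcyt2 was above Etnk1 in each control library, whereas their Myf5Cre-Pcyt2 ranges overlapped, at 2.89 to 3.44 for Pcyt2 and 3.18 to 3.29 for Etnk1.

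Selenoi followed with 2.76 ± 0.096 CPM per kilobase in Myf5Cre-Pcyt2 (SD, n = 3), above its control range of 2.14 to 2.42. Phospho1 had 2.12 ± 0.923 in Myf5Cre-Pcyt2 and 2.40 ± 0.231 in control, and its range overlapped that of Selenoi in both groups and that of Pisd in Myf5Cre-Pcyt2. Its place in the order is uncertain, because most of its exon bases are shared with Zfp652 and Abi3. Pisd had 1.56 ± 0.070 in Myf5Cre-Pcyt2 and 1.46 ± 0.073 in control. Pemt (0.774 ± 0.024 in Myf5Cre-Pcyt2, 1.15 ± 0.113 in control) and Etnk2 (0.085 ± 0.026 in Myf5Cre-Pcyt2, 0.074 ± 0.009 in control) closed the order without overlap with their neighbours. Over all 6 libraries the level of Pcyt2 per kilobase was at percentile 51.5 of the tested genes, Cept1 at 69.9 and Pemt at 23.6. The length is that of all annotated exons merged, which lowers the value of genes with many unused exons.

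**Figure D4:**
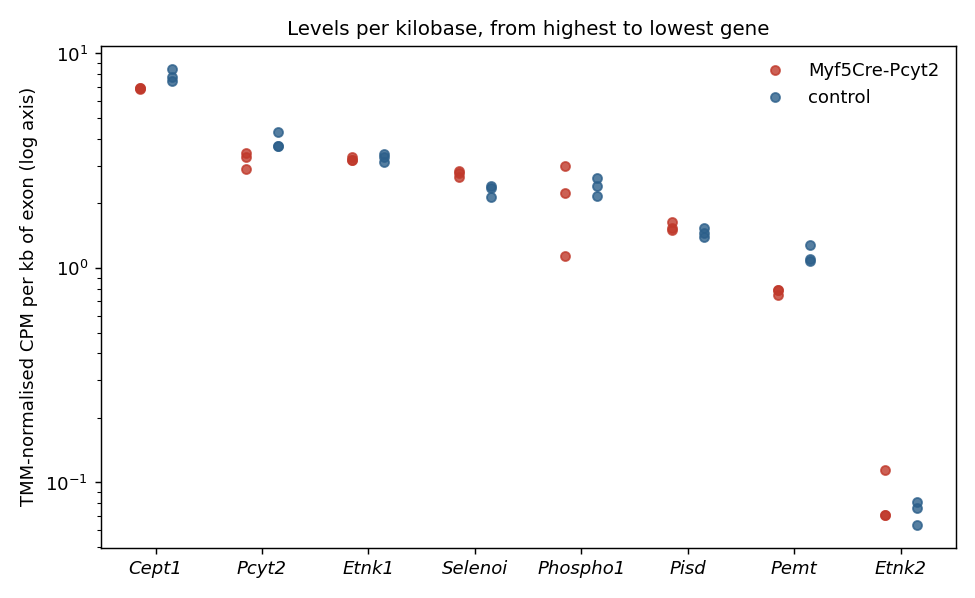
TMM-normalised CPM per kilobase of merged exon (log axis) in each library, genes ordered by their mean over 6 libraries, Myf5Cre-Pcyt2 in red left of control in blue. Cept1 is highest at 6.84 to 8.49 and Etnk2 lowest, under 0.12, and Pcyt2 and Etnk1 overlap in Myf5Cre-Pcyt2 but not in control.

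Genes that feed, branch from or use PE synthesis were followed through 10 lists with 50 genes in all, of which 44 were tested. Of these 44, 4 rose (Sgpl1, Lpin2, Lpin3 and Ctps) and 3 fell (Chpt1, Flvcr1 and Napepld), against 9.02% higher and 9.59% lower among all tested genes. None of the 7 that changed belongs to the 8 genes described above. The median log2 fold change was −0.09 over the 44 genes and −0.07 over the 37 that remain when the 8 genes are left out. The count of 7 was 2 when either Myf5Cre-Pcyt2 replicate 2 or 3 was left out, and 3 without control replicate 2. Calls over all genes fell too, from 1328 higher and 1411 lower of 14715. They were 422 and 424 of 14854 without Myf5Cre-Pcyt2 replicate 2, and 639 and 641 of 14884 without replicate 3. Without control replicate 2 they were 601 and 699 of 15002. With library size as the only scaling the list count was 12, of which 11 were higher. Over all genes that scaling gave 3225 higher and 499 lower of 14715, and it moved their median log2 fold change up by 0.21.

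In the list for supply and removal of ethanolamine and phosphoethanolamine, 1 of 9 tested genes rose and 2 fell, whereas 6 stayed short of the threshold. Among all tested genes 9.02% rose and 9.59% fell. The median log2 fold change of the list was −0.19. That median is again the estimate of Phospho1. Flvcr1, a plasma membrane transporter of choline and ethanolamine, had 9.18, 8.25 and 8.96 CPM in Myf5Cre-Pcyt2 and 18.1, 10.6 and 12.9 CPM in control. It fell to 8.80 ± 0.486 CPM in Myf5Cre-Pcyt2, against 13.9 ± 3.86 CPM in control (SD, n = 3 each; log2 fold change −0.66 ± 0.18 SE, edgeR adjusted p 0.0277), with control replicate 1 well above the other controls. Flvcr1 did not pass without any one of Myf5Cre-Pcyt2 replicates 1 (0.0507), 2 (0.107) and 3 (0.0746) or without control replicate 1 (0.0644, log2 fold change −0.42), nor with library size alone (0.115). Its paralog Flvcr2, at −0.16 ± 0.19 (SE), did not pass, nor did the choline transporter-like genes Slc44a1 (−0.07 ± 0.08) and Slc44a2 (−0.10 ± 0.10). Gde1, at −0.29 ± 0.09, came nearest to the threshold of those that did not pass (edgeR adjusted p 0.0516). Its groups did not overlap, and it passed as lower in 3 of 16 alternatives. Gdpd1 had −0.22 ± 0.20 and did not pass.

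Napepld, whose enzyme releases N-acylethanolamines from N-acylated PE, had 15.6, 10.9 and 12.7 CPM in Myf5Cre-Pcyt2 and 15.3, 20.7 and 19.7 CPM in control. Myf5Cre-Pcyt2 replicate 1 overlapped with control replicate 1. Napepld fell to 13.0 ± 2.38 CPM in Myf5Cre-Pcyt2, against 18.6 ± 2.88 CPM in control (SD, n = 3 each; log2 fold change −0.51 ± 0.15 SE, edgeR adjusted p 0.0392). It did not pass without Myf5Cre-Pcyt2 replicate 2 (0.151) or 3 (0.113), or without control replicate 2 (0.128) or 3 (0.0917), nor with library size alone (0.134) or a covariate for sex (0.0568). Napepld also missed the threshold with the replicate block, alone or with the GC content and length offset.

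Sgpl1 encodes sphingosine-1-phosphate lyase, whose reaction yields phosphoethanolamine. It had 34.1, 33.0 and 35.1 CPM in Myf5Cre-Pcyt2 and 30.5, 25.4 and 27.5 CPM in control, without overlap. Sgpl1 rose to 34.1 ± 1.07 CPM in Myf5Cre-Pcyt2, against 27.8 ± 2.55 CPM in control (SD, n = 3 each; log2 fold change 0.29 ± 0.09 SE, edgeR adjusted p 0.0466). That call is at the threshold, and it did not pass without Myf5Cre-Pcyt2 replicate 1 (0.0918), 2 (0.107) or 3 (0.155) or without control replicate 2 (0.150) or 3 (0.0949). Nor did Sgpl1 pass with DESeq2 (0.0759), without a filter on low counts (0.0606), with the GC content and length offset (0.0818) or with a covariate for sex (0.0729). Etnppl, the phospholyase that degrades phosphoethanolamine, was at 0 counts in every library, and Faah was too low to be tested.

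Of the 6 genes of the choline branch of the Kennedy pathway, which makes phosphatidylcholine, 1 fell and 5 did not pass, with a median log2 fold change of −0.11. Among all tested genes 9.59% fell. Chpt1, the choline phosphotransferase, had 92.8, 76.4 and 106 CPM in Myf5Cre-Pcyt2 and 135, 144 and 148 CPM in control. It fell to 91.7 ± 14.7 CPM in Myf5Cre-Pcyt2, against 142 ± 6.66 CPM in control (SD, n = 3 each). Its log2 fold change of −0.64 ± 0.12 (SE, edgeR adjusted p 0.00632) passed in all 16 alternatives, with adjusted p up to 0.0286. Pcyt1a, the choline counterpart of Pcyt2, had an estimate of −0.29 ± 0.12 (log2, SE; adjusted p 0.111), close to that of Pcyt2, and its groups did not overlap. Chka and Chkb, the choline kinases, had 0.34 ± 0.19 and −0.02 ± 0.22 and did not pass.

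The 3 lipins are phosphatidate phosphatases that supply the diacylglycerol for both branches, and 2 of them rose. This list is short, and 9.02% of all tested genes rose. Lpin2 had 245, 275 and 276 counts in Myf5Cre-Pcyt2 and 177, 142 and 143 counts in control. It rose to 12.6 ± 0.549 CPM in Myf5Cre-Pcyt2, against 8.63 ± 0.641 CPM in control (SD, n = 3 each; log2 fold change 0.55 ± 0.11 SE, edgeR adjusted p 0.0101), and passed without each library in turn.

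Lpin3 had 11.2, 11.1 and 12.4 CPM in Myf5Cre-Pcyt2 and 8.73, 7.48 and 8.40 CPM in control. It rose to 11.6 ± 0.753 CPM in Myf5Cre-Pcyt2, against 8.21 ± 0.648 CPM in control (SD, n = 3 each; log2 fold change 0.49 ± 0.12 SE, edgeR adjusted p 0.0185), and missed the threshold when Myf5Cre-Pcyt2 replicate 2 (0.0585) or 3 (0.0814) or control replicate 2 (0.0647) was left out. Lpin1, the main lipin of adult muscle, was at 90.2 CPM in Myf5Cre-Pcyt2 and 124 CPM in control, and its estimate of −0.46 ± 0.17 (log2, SE) missed the threshold (adjusted p 0.0755). It passed as lower in 4 of 16 alternatives. These were DESeq2 (adjusted p 0.0198), no filter on low counts (0.000255), the GC content and length offset (0.0266) and leaving out control replicate 3 (0.0154).

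CTP is the nucleotide that the Pcyt2 enzyme uses, and of the CTP synthases Ctps passed. Ctps had 43.0, 40.0 and 40.2 CPM in Myf5Cre-Pcyt2 and 31.9, 31.3 and 35.9 CPM in control, without overlap. It rose to 41.1 ± 1.65 CPM in Myf5Cre-Pcyt2, against 33.0 ± 2.51 CPM in control (SD, n = 3 each; log2 fold change 0.31 ± 0.09 SE, edgeR adjusted p 0.0312). The call was lost without any of Myf5Cre-Pcyt2 replicates 1 (0.0876), 2 (0.0858) and 3 (0.0883) or control replicates 1 (0.0688) and 2 (0.102). Ctps also missed the threshold with the replicate block, alone or with the GC content and length offset. The estimate for Ctps2 was 0.40 ± 0.14 (log2, SE; adjusted p 0.0616).

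In the remaining lists 0 genes passed in the reported fit. In the phosphatidylserine decarboxylation route, 5 of 6 genes were tested and their median log2 fold change was −0.17. Of these, Prelid3b passed as lower with DESeq2 (adjusted p 0.0417), without a filter on low counts (0.0350) and without control replicate 1 (0.0482). The phosphatidylserine synthases Ptdss1 (−0.22 ± 0.09 SE) and Ptdss2 (−0.14 ± 0.08) and the lipid transfer genes Prelid3b (−0.30 ± 0.10) and Triap1 (−0.17 ± 0.12) were on the low side and Pisd on the high side, with Ptdss2 and Triap1 above 0 under library size alone and Triap1 also under the offset for GC content and length. Besides Pemt, the methylation list held 3 tested genes of methyl donor supply, Mat2a (−0.17 ± 0.10), Mat2b (−0.07 ± 0.09) and Ahcy (−0.23 ± 0.19), of which the Mat2a and Mat2b estimates turned positive with library size alone. Mboat2 (0.34 ± 0.12), Lpcat3 (0.23 ± 0.09) and Lpcat4 (0.48 ± 0.21), which reacylate lysophospholipids, had positive and Mboat1 (−0.33 ± 0.13) negative estimates. Mboat2, Lpcat3 and Lpcat4 passed with library size alone.

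Enzymes that move ethanolamine phosphate from PE to GPI anchors (Pign, Pigo, Pigg and Pigf) had estimates between −0.04 and 0.43. Enzymes of ether lipid synthesis, which leads to ethanolamine plasmalogens, were Gnpat at −0.18 ± 0.09 (SE), Agps at −0.13 ± 0.09, Far1 at 0.30 ± 0.10 and Tmem189 (a plasmalogen desaturase) at 0.16 ± 0.09, and Gnpat and Agps turned positive with library size alone. Far1 passed as higher without control replicate 3 (adjusted p 0.0186), and both Far1 and Tmem189 passed with library size alone. Genes of the lists that did not pass in the reported fit are given because they belong to the lists, and some were picked out after their values were seen.

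**Figure D5:**
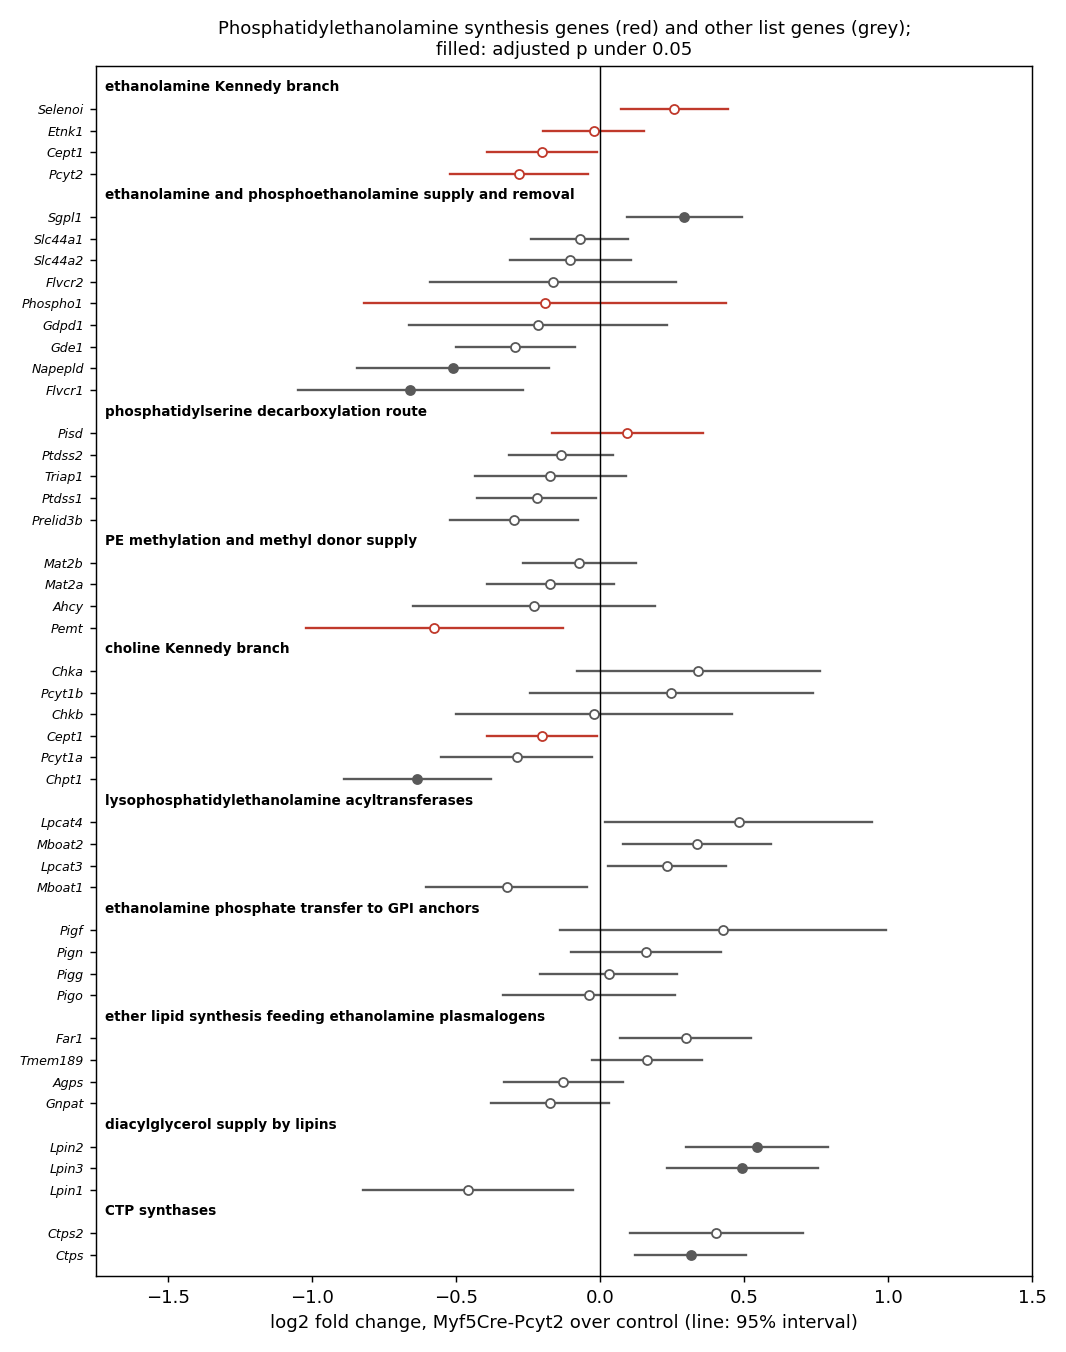
Log2 fold change, Myf5Cre-Pcyt2 over control, with 95% interval for each tested gene of the 10 lists, the 7 tested genes of PE synthesis in red (Cept1 stands in both Kennedy branches) and the others in grey; filled points passed the threshold. Sgpl1, Lpin2, Lpin3 and Ctps are filled on the right, Chpt1, Flvcr1 and Napepld on the left, and no red point is filled.

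The genes whose log2 CPM followed that of Pcyt2 most closely over the 6 libraries, among 10025 protein-coding tested genes with a mean of at least 5 CPM, were Cope (Pearson r 0.980), Gamt (0.978), Cbll1 (0.977), Tapbp (0.977) and Sh2d4a (0.974). There were 83 genes with r over 0.9. Cope, a subunit of the COPI vesicle coat, had 65.5 ± 3.65 CPM in Myf5Cre-Pcyt2 and 76.8 ± 4.02 CPM in control (SD, n = 3 each). For Selenoi they were Sytl2 (0.996), Mettl9 (0.994), Igfn1 (0.993), Virma (0.992) and Strip2 (0.990), with 514 genes over 0.9. Sytl2 had 161 ± 16.2 CPM in Myf5Cre-Pcyt2 and 80.0 ± 18.7 CPM in control (SD, n = 3 each). These correlations over 6 libraries include the difference between the groups and share the libraries' scaling, and they are given as a description.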

How the data were processed

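RNA sequencing counts of 6 quadriceps libraries were used, 3 per group, from pups of 10 days. The authors deposited raw counts per Ensembl gene. The submitters' processing notes name GRCm38/mm10, Bowtie2 2.3.4.1, Subread 1.6.2 with featureCounts, and Trim Galore 0.5.0, in no order. For annotation release, strand setting and reads with several map positions, the settings were not given in the sources used here.

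Symbols, positions and exon lengths came from GENCODE M21, which matched 54495 of 54532 genes. Genes were filtered with filterByExpr, scaled with TMM and compared with edgeR 4.0.16 (quasi-likelihood test, group alone as the design, two-sided, Benjamini-Hochberg over 14715 genes, threshold 0.05) in R 4.3.3. DESeq2 1.42.0, limma 3.58.1 (voom) and the settings listed under the dependence on processing were alternatives. Levels between genes are CPM per kilobase of merged exon, used in place of a TPM-like value. Python 3.11.15 drew the figures. The fit was tested on simulated data. No 2 libraries of a group were copies by their counts.

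Named genes are the 8 genes, the Pisd copies, overlapping genes with counts, list genes past the threshold, and the 5 genes most correlated with Pcyt2 and with Selenoi. Members and lists were chosen with earlier results of these data known. The intervals reflect counting error and library spread only.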

Additional observations from a re-analysis of the deposited data

How the results depend on the processing

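In the 16 alternatives the signs of the Pcyt2, Selenoi and Pemt differences were the same. The count of changed genes among the 8, reported as 0, was 1 with library size as the only scaling (Selenoi, 0.46, adjusted p 0.0157), 1 with the 1 CPM filter (Selenoi, 0.26, adjusted p 0.0499) and 1 with the GC content and length offset (Pcyt2, −0.35, adjusted p 0.0365), and 0 without each library in turn. With library size alone the log2 values of Etnk1 (0.187), Phospho1 (0.0099), Cept1 (0.0119), Slc44a1 (0.139), Slc44a2 (0.106), Flvcr2 (0.0383), Ptdss2 (0.074), Triap1 (0.0317), Mat2a (0.0292), Mat2b (0.129), Chkb (0.178), Pigo (0.172), Gnpat (0.0367), Agps (0.0849), Cbll1 (0.0644) and Zfp652 (0.0814) turned positive, 12 list genes passed, and of all calls 86.6% were higher, where TMM gave 48.5%. The offset turned Pisd (−0.00138) and Triap1 (0.0206), and limma-voom turned Chkb (0.0097). Leaving out single libraries gave −0.0589 to 0.00604 for Etnk1, −0.507 to 0.11 for Phospho1, −0.277 to 0.0547 for Flvcr2, −0.216 to 0.169 for Chkb, −0.176 to 0.0453 for Pigo and −0.0484 to 0.0811 for Pigg. The cause of these changes was not tested.

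Same-numbered libraries had correlations of −0.11, −0.17 and 0.02 in their deviations from the group means. These few values gave no clear sign of pairing but cannot exclude it. Same-numbered libraries were also of the same sex, so the replicate block includes sex. With the replicate block the changed genes numbered 1731 in place of 2739, and those of the lists 4 in place of 7; Pcyt2 had −0.28 (adjusted p 0.134), Selenoi 0.26 (adjusted p 0.116) and Chkb 0.00977. With the block and the offset together the counts were 1439 and 3, Pcyt2 had an adjusted p of 0.0696 and Lpin2 of 0.0648, and Pisd (−0.00175), Triap1 (0.025) and Chkb (0.00543) turned sign. Without single libraries 846 to 2785 genes changed (846 and 1280 when Myf5Cre-Pcyt2 replicates 2 and 3 were left out, and 1300 when control replicate 2 was), and 2 to 7 list genes. The Pcyt2 to Selenoi log2 difference lay between −0.61 and −0.44 without single libraries. Depth limits Etnk2, at 5 to 12 counts, and Pemt, at 31 to 51.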
